A study of Mus musculus with 22 samples.

Results

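Alkylated and oxidised DNA bases are removed by a small set of enzymes, and 9 of their genes were followed here in mouse bladders: Mgmt, Mpg, Alkbh2, Alkbh3, Ogg1, Apex1, Polb, Xrcc1 and Parp1. The genes were chosen by name, as the genes of direct alkylation repair and of the core steps of base excision repair, and their probes were found through the reference sequence each probe is listed for. All 9 were among the 22911 genes with a named probe. They had 13 probes in all, 3 for Apex1, 2 each for Mpg and Alkbh3, and 1 for each of the others. Every brightest probe was well above background on 22 of 22 arrays, so all 9 genes passed the filter on dim probes.

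Repair of alkylated bases runs along 2 routes. In direct reversal, Mgmt takes an alkyl group off guanine onto one of its own cysteines and is used up by doing so, while Alkbh2 and Alkbh3 remove small alkyl groups from adenine and cytosine by oxidation. In base excision repair, a glycosylase such as Mpg (alkylated purines) or Ogg1 (oxidised guanine) cuts out the base, Apex1 nicks the strand at the empty site, Polb fills the gap, and Xrcc1 holds the ligation complex together at breaks that Parp1 has sensed. The carcinogen given here, BBN, is a nitrosamine that is used in drinking water to produce bladder tumours in rodents.

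Total RNA of 22 bladder samples, 1 array each, was labelled with Cy3 and read on Agilent arrays of 1 colour. Bladders of 7 groups came from mice that drank BBN for 24 weeks, starting at 2 months of age, and all mice of the study were 8 months old. In 6 of these groups tamoxifen had been given to mice with a tamoxifen-dependent Cre recombinase and an LSL-RFP reporter. The Cre was driven by Krt5, a gene of basal urothelial cells, or by Upk2, a gene of luminal urothelial cells. The mutant groups also carried the Trp53 allele R270H or R172H: with the Krt5 driver, Krt5-Cre R270H had 3 arrays and Krt5-Cre R172H had 4; with the Upk2 driver, Upk2-Cre R270H had 2 arrays and Upk2-Cre R172H had 3. The groups with Cre and reporter alone were Krt5-Cre (2) and Upk2-Cre (2). The Trp53 het group (3) has the R270H allele in its genotype label and a plain heterozygote in its titles, and had BBN with neither Cre nor tamoxifen. The normal group (3) was wild type, with neither BBN nor tamoxifen. Its tissue is labelled as urothelium although the extraction is described from whole bladders, and nothing in the labels says whether arrays of a group came from separate litters, so p-values measure the spread between these samples only. A pair of Upk2-Cre arrays and a pair of Trp53 het arrays each share a code in their descriptions. Of the Upk2-Cre pair, replicate 1 had Xist well above background and replicate 2 had 4 Y-linked genes, so they do not read as the same animal. The Trp53 het pair, replicates 1 and 2, both read as male, so the number of separate animals there may be smaller than the number of arrays.

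A level below is the log2 of a spot's processed signal minus that array's own 75th percentile, so a level can be compared between arrays for 1 probe and never between probes. Between 42.2% and 63.1% of the spots were well above background on an array. Arrays of a group correlated between 0.898 and 0.994 over the tested genes. The 3 normal arrays filled a slide of their own, so slide and normal tissue cannot be told apart, and they were read on the same scanner model (G2600D) as 8 of the 19 BBN arrays. The other 11 BBN arrays were read on a G2505C. On 11 of 22 arrays, all 3 normal ones and 8 BBN ones, Xist and Y-linked signals contradicted the labelled sex. The 3 normal arrays were all labelled female and all read as male, while the BBN arrays held both sexes by label and by signal. Normal and BBN bladders were thus unbalanced for sex by either source. Trp53 itself averaged -0.59 ± 0.89 in the mutant groups and 0.73 ± 0.77 in the other BBN groups (SD, n = 12 and 7), which was no call (limma adjusted p = 0.528), and whether its probe tells the alleles apart was not tested.

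Promoters of 2 genes are shown because Apex1 was higher in BBN than in normal bladders and Mgmt varied most of the 9 among the BBN bladders. The sequences run from 250 bases before to 50 bases after a transcription start listed in RefSeq on GRCm38.p6, in the 5′ to 3′ direction of the gene. Apex1 lies at chr14:50924949-50927188 and its promoter is chr14:50924699-50924998, on the plus strand. Mgmt lies at chr7:136894463-137128193 and the window shown, around the upstream of its 2 start entries in the promoter table, is chr7:136894336-136894635, on the plus strand too. That start entry lies inside the gene span given, past its first base. Capitals mark CCAAT boxes (CCAAT), GC boxes (GGGCGG) and E boxes (CACGTG), each searched on both strands. No 2 of the marked motifs overlapped.
Apex1: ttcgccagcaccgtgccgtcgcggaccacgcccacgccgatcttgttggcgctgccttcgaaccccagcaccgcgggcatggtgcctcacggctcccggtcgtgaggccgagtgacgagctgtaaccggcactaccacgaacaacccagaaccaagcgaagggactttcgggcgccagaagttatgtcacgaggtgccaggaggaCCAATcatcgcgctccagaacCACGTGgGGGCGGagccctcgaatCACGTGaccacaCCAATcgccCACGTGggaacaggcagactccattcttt
Mgmt: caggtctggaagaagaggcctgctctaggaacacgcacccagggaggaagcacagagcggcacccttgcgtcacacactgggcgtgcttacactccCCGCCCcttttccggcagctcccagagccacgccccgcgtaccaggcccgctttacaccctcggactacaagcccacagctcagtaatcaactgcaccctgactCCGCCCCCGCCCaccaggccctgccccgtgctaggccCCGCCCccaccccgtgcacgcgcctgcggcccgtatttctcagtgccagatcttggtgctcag
The Apex1 promoter held 2 CCAAT boxes, 1 GC box and 3 E boxes, and the Mgmt window shown held 4 GC boxes. CCAAT stood in 37.4% of 32851 promoters of that length, the GC box in 35.7% and the E box in 7.15%. The E box was searched after the Apex1 sequence had been read. Apex1 had 31 CpG in its 300 bases and the Mgmt window shown had 20, against a median of 7 over all promoters. The other Mgmt entry had 3 CpG and no marked motif, and which start the bladder uses was not tested. A promoter was matched for 8 of the 9 genes, with 9 entries because Mgmt has 2 of them, and 6 of the 9 entries held a GC box. None of the 9 held the cAMP response core (TGACGT, in 7.51% of all promoters) or the E2F core (TTTCGCGC, 0.323%). A match describes letters in a window and shows no binding.

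BBN bladders differed from normal bladders in 2 of the 9 genes. Apex1, the endonuclease of the empty site, was 1.70-fold higher in the BBN bladders, and Polb, the polymerase that fills the gap, was 0.525 times its normal level. The other 7 genes did not pass the test, and their differences lay between -0.39 and 0.67 on the log2 scale. The comparison set the mean of the 7 BBN group means against normal, with limma and p-values adjusted over 17404 tested genes. It called 42.7% of all tested genes, 23.7% higher and 19% lower, so 2 calls in 9 is not above the background. The median difference of the 9 genes was 0.16 and that of all tested genes 0.13. In what follows, a mean of several groups is the mean of their group means, and its SD is taken over the arrays.

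The Apex1 level was 2.71, 2.05 and 2.59 in Krt5-Cre R270H, 2.66, 2.43, 2.67 and 2.77 in Krt5-Cre R172H, 2.97 and 1.96 in Upk2-Cre R270H, and 2.69, 2.54 and 3.02 in Upk2-Cre R172H. It was 2.20 and 2.29 in Krt5-Cre, 3.32 and 2.97 in Upk2-Cre, 2.75, 3.28 and 2.99 in Trp53 het, and 2.05, 2.00 and 1.68 in normal bladders. Of the 19 BBN arrays, 18 lay above every normal array, 1 of them in Krt5-Cre R270H by less than the rounding of 2.05, and the exception was an Upk2-Cre R270H bladder. The means were 2.67 ± 0.38 in BBN bladders and 1.91 ± 0.20 in normal bladders (SD, n = 19 and 3). The difference was 0.76 on the log2 scale, with a 95% interval of 0.32 to 1.20 (SE 0.21, limma adjusted p = 0.0078). A second bright Apex1 probe followed the first with a Pearson correlation of 0.96 over the 22 arrays and gave a difference of 0.84 (limma adjusted p = 0.0041). The third probe was dim, well above background on 16 of 22 arrays, and gave 0.29 (limma adjusted p = 0.677). Without the third normal array the Apex1 call was lost (0.65, limma adjusted p = 0.0664).

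The Polb level was 2.81, 1.94 and 3.08 in Krt5-Cre R270H, 3.07, 3.02, 2.36 and 2.25 in Krt5-Cre R172H, 2.50 and 2.34 in Upk2-Cre R270H, and 2.13, 2.72 and 2.59 in Upk2-Cre R172H. It was 2.41 and 3.14 in Krt5-Cre, 2.67 and 3.13 in Upk2-Cre, 2.24, 2.59 and 2.74 in Trp53 het, and 3.64, 3.61 and 3.42 in normal bladders. All 19 BBN arrays lay below all 3 normal arrays. Over all tested genes, 12% had every BBN array below every normal array and 13.6% had every BBN array above. Polb averaged 2.63 ± 0.36 in BBN bladders and 3.56 ± 0.12 in normal bladders (SD, n = 19 and 3). The difference was -0.93, with a 95% interval of -1.45 to -0.40 (SE 0.25, limma adjusted p = 0.0068). Polb has 1 probe on the array, so its fall rests on that probe. Within the BBN bladders Polb was also lower on the scanner model of the normal arrays, at 2.42 ± 0.22 on G2600D (n = 8) and 2.76 ± 0.39 on G2505C (n = 11). Among G2600D arrays alone the difference from normal was -1.13 (limma adjusted p = 0.0016), and for Apex1 it was 0.84 (limma adjusted p = 0.0052). Without the 8 BBN arrays that went against their sex label, the difference was -0.98 for Polb (limma adjusted p = 0.0274) and 0.85 for Apex1 (limma adjusted p = 0.0436), with the 3 normal arrays kept.

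**Figure D1:**
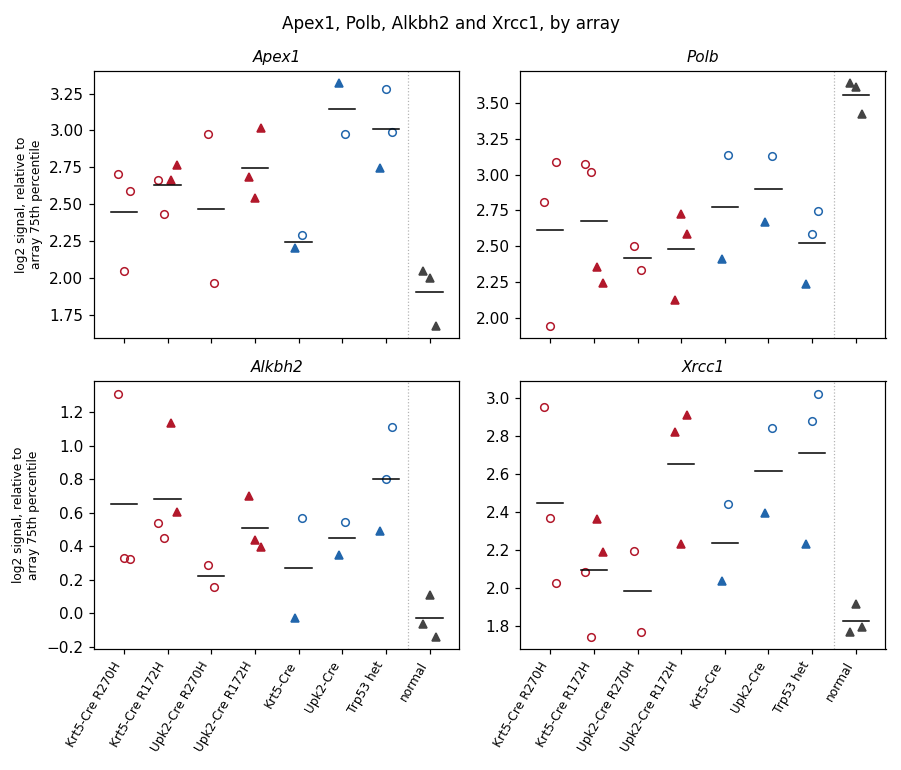
Level of Apex1, Polb, Alkbh2 and Xrcc1 on each array (log2 signal relative to the array's 75th percentile, y axes not from 0), by group. Red points are Trp53 mutant groups, blue points the other BBN groups and grey points normal bladders. Open circles were read on scanner G2505C and filled triangles on G2600D, and bars are group means. Polb sits below normal in all 19 BBN bladders and Apex1 above normal in 18 of 19.

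Alkbh2 and Xrcc1 missed the threshold narrowly. Alkbh2, the oxidative reversal enzyme of double-stranded DNA, ran from -0.03 to 1.31 over the BBN bladders with a median of 0.49, against -0.06, 0.11 and -0.14 in normal bladders. It lay above all normal arrays in 18 of 19 BBN bladders. Alkbh2 averaged 0.51 ± 0.34 in BBN bladders and -0.03 ± 0.13 in normal bladders (SD, n = 19 and 3), a difference of 0.54 with a 95% interval of 0.08 to 1.005 (limma adjusted p = 0.0546). Xrcc1, the scaffold of the ligation step, ran from 1.74 to 3.02 with a median of 2.36 over the BBN bladders, against 1.77, 1.92 and 1.79 in normal bladders. It lay above all normal arrays in 17 of 19 BBN bladders and below all of them in 1, a Krt5-Cre R172H bladder. Xrcc1 averaged 2.39 ± 0.40 in BBN bladders and 1.83 ± 0.08 in normal bladders (SD, n = 19 and 3), a difference of 0.57 with a 95% interval of 0.09 to 1.04 (limma adjusted p = 0.0524). Whether these 2 genes pass depended on the setting. Alkbh2 was called in 9 and Xrcc1 in 13 of 39 alternative settings, over which their differences ran from 0.34 to 0.67 and from 0.41 to 0.61.

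The remaining 4 enzymes other than Mgmt gave differences whose intervals include 0. Mpg, the glycosylase for alkylated purines, had 1.60, 1.98 and 2.56 as lowest, median and highest level in BBN bladders, against 1.72, 2.13 and 1.75 in normal bladders. Its difference was 0.16, with a 95% interval of -0.24 to 0.55 (limma adjusted p = 0.514), and its second probe gave 0.40 (limma adjusted p = 0.160). Alkbh3, which acts mainly on single-stranded DNA and RNA, had 1.17, 2.11 and 2.98 in BBN bladders, against 2.06, 2.20 and 1.95 in normal bladders. The BBN arrays fell on both sides of the normal ones, 6 above and 6 below all of them, and the difference was 0.02, with a 95% interval of -0.49 to 0.52 (limma adjusted p = 0.963). Its second probe gave -0.21 (limma adjusted p = 0.445), so the probes differed in sign, both without a call.

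Ogg1, the glycosylase of oxidised guanine, had -2.04, -0.69 and 0.20 as lowest, median and highest level in BBN bladders, against -0.81, -0.42 and -0.82 in normal bladders. The difference of -0.06 had a 95% interval of -0.72 to 0.61 (limma adjusted p = 0.899). Ogg1 moved with the scanner among BBN bladders, at -0.43 ± 0.14 on G2600D (n = 8) and -1.02 ± 0.56 on G2505C (n = 11), and its difference was 0.26 within G2600D (limma adjusted p = 0.243). Parp1, the sensor of strand breaks, had -1.36, -0.55 and 0.25 in BBN bladders, against -0.07, -0.30 and -0.25 in normal bladders. Of the BBN arrays 15 lay below all normal arrays and 2 above, and the difference was -0.39, with a 95% interval of -0.91 to 0.14 (limma adjusted p = 0.220). Parp1 was also lower on G2505C, at -0.37 ± 0.37 on G2600D and -0.74 ± 0.38 on G2505C, and with the scanner as a block its difference was -0.05 (limma adjusted p = 0.889).

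**Figure D2:**
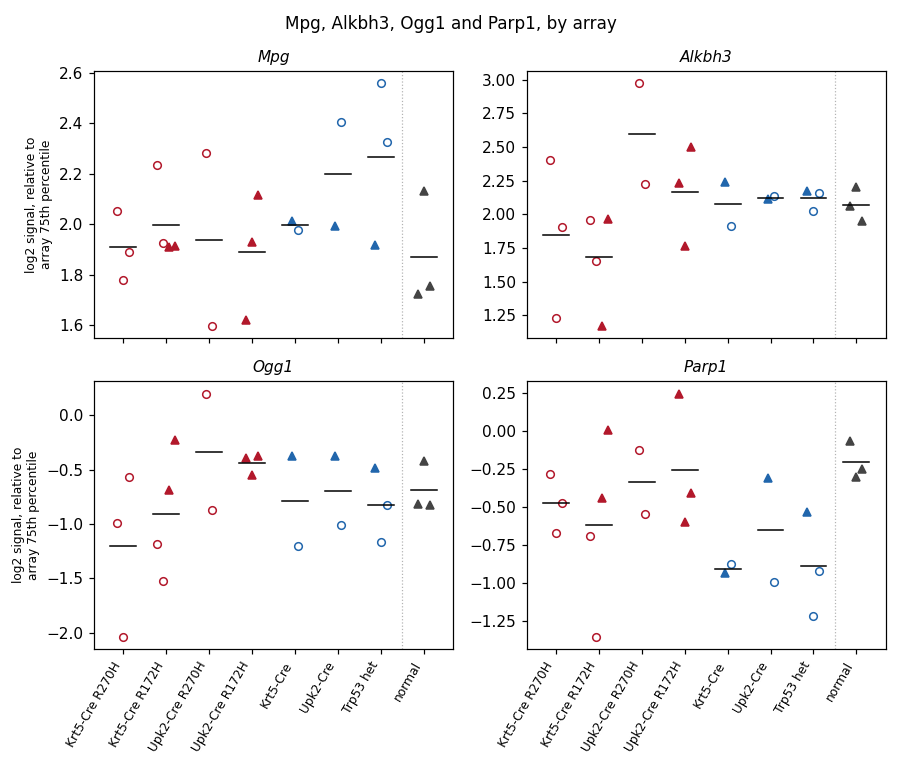
Level of Mpg, Alkbh3, Ogg1 and Parp1 on each array (log2 signal relative to the array's 75th percentile, y axes not from 0), by group, with colours, symbols and bars for the groups, scanners and group means as in the plot of Apex1 and Polb by array. The normal bladders lie inside the range of the BBN bladders for all 4 genes.

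**Figure D3:**
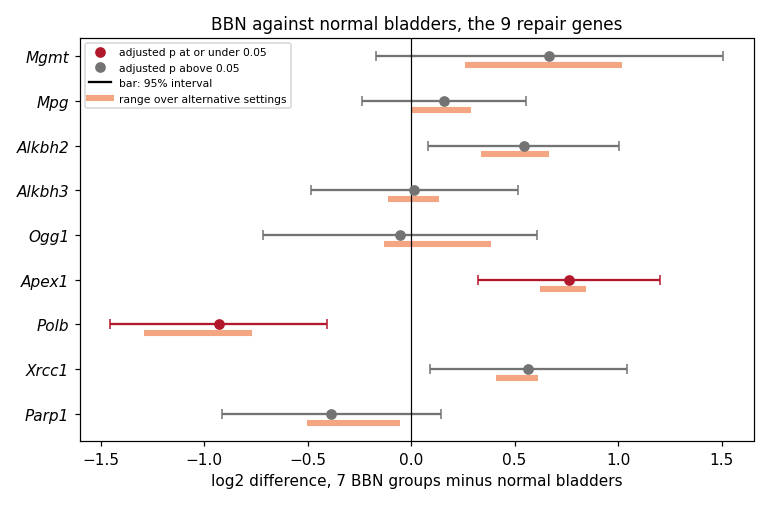
Difference between the 7 BBN groups and normal bladders for the 9 genes (log2, x axis). Points and thin bars give the estimate and its 95% interval, red where the adjusted p is at or under 0.05, and the orange bars give the range of the estimate over 39 alternative settings. Apex1 (0.76) and Polb (-0.93) are red, and the orange bars of Alkbh3 and Ogg1 cross 0.

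Mgmt, the direct reversal protein for guanine, was the member with the widest spread. Its level was -0.09, 1.59 and 0.78 in Krt5-Cre R270H, -0.28, -0.17, 1.22 and 0.93 in Krt5-Cre R172H, 1.28 and 1.24 in Upk2-Cre R270H, and 2.27, 0.90 and 2.12 in Upk2-Cre R172H. It was 2.01 and 1.90 in Krt5-Cre, 0.90 and 2.14 in Upk2-Cre, 3.41, 2.23 and 2.42 in Trp53 het, and 0.65, 1.24 and 0.55 in normal bladders. The 19 BBN bladders spanned 3.68 on the log2 scale, and 10 of them lay above and 3 below all normal arrays. The pooled SD within groups was 0.70 for Mgmt, 0.25 for Mpg and between these for the other 7 genes, with a median of 0.59 over all tested genes. The difference between BBN and normal bladders was 0.67, with a 95% interval of -0.17 to 1.51 (limma adjusted p = 0.182). It was 1.02 among the G2600D arrays alone (limma adjusted p = 0.0398).

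By group mean, Mgmt was ordered Trp53 het (2.68), Krt5-Cre (1.95), Upk2-Cre R172H (1.76), Upk2-Cre (1.52), Upk2-Cre R270H (1.26), normal (0.81), Krt5-Cre R270H (0.76) and Krt5-Cre R172H (0.42). Of the 7 pairs of neighbours in that order, 6 overlapped in their arrays, and the exception was Trp53 het above Krt5-Cre. For Apex1 and Alkbh2 the neighbour that did not overlap was normal at the low end, and for Polb it was normal at the high end. For Mpg, Alkbh3, Ogg1, Xrcc1 and Parp1 all 7 pairs of neighbours overlapped. How often neighbours overlap over all tested genes was not counted.

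**Figure D4:**
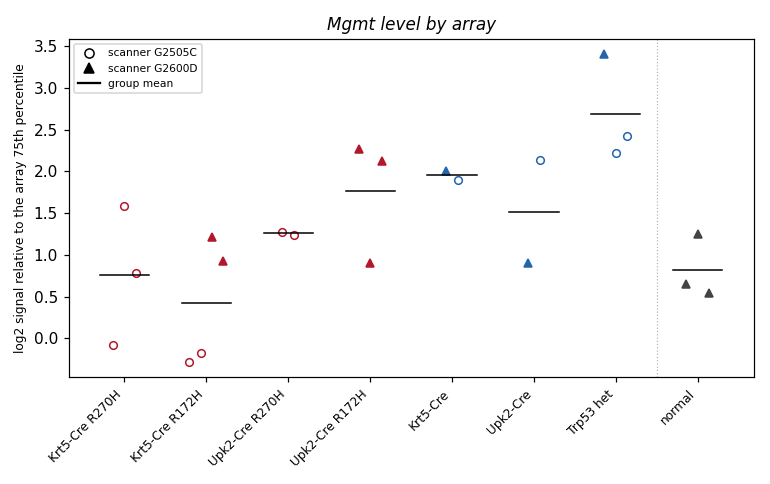
Mgmt level on each array (log2 signal relative to the array's 75th percentile, y axis not from 0), by group. Red points are Trp53 mutant groups, blue points the other BBN groups and grey points normal bladders, with open circles for scanner G2505C, filled triangles for G2600D and bars for group means. All 7 Krt5-Cre mutant bladders lie below both Krt5-Cre bladders, while the Upk2-Cre mutant bladders overlap Upk2-Cre. The share of all tested genes that separate so was not counted.

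Among BBN bladders the study crossed the Trp53 allele with the Cre driver, and 0 of the 9 genes passed the test in any of the 8 comparisons made there. The same comparisons called 0 to 2 of the 17404 tested genes each, at most 0.0115% (Krt5-Cre mutants against Krt5-Cre, 0.00575% higher and 0.00575% lower). Upk2-Cre mutants against Upk2-Cre called 0.00575%, higher, and Krt5-Cre mutants against Upk2-Cre mutants 0.00575%, lower. The other comparisons called 0%, and the F test over the 7 BBN groups called 0. At an unadjusted p under 0.05 they had between 578 and 1708 of the 17404 genes.

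Mgmt gave the largest difference of the 9 genes in 5 of these comparisons and the smallest in Upk2-Cre mutants against Upk2-Cre. It averaged 1.05 ± 0.83 in the 4 mutant groups and 2.05 ± 0.74 in the other 3 BBN groups (SD, n = 12 and 7), a difference of -0.999 with a 95% interval of -1.65 to -0.35 (limma adjusted p = 0.528). Over 41 alternative settings that difference ran from -1.37 to -0.51. The other 3 groups include Trp53 het, which had neither Cre nor tamoxifen, while all mutant groups had both. Slide 2 held Trp53 mutant arrays only, so mutation and slide cannot be fully told apart. Mgmt averaged 0.57 ± 0.75 on slide 2 (n = 5), 1.70 ± 0.92 on slide 1 (n = 6) and 1.72 ± 0.89 on slide 3 (n = 8). For the Krt5 driver it averaged 0.59 ± 0.74 in mutants and 1.95 ± 0.08 in Krt5-Cre (SD, n = 7 and 2), a difference of -1.36 with a 95% interval of -2.44 to -0.28 (limma adjusted p = 0.943). For the Upk2 driver it averaged 1.51 ± 0.60 in mutants and 1.52 ± 0.88 in Upk2-Cre (SD, n = 5 and 2), a difference of -0.01 with a 95% interval of -1.14 to 1.13 (limma adjusted p = 0.9996). The 7 Krt5-Cre mutant arrays lay below both Krt5-Cre arrays, and the Upk2-Cre groups overlapped. The driver difference of the mutation effect on Mgmt was -1.35, with a 95% interval of -2.92 to 0.21 (limma adjusted p = 0.998), so the 2 drivers were not shown to differ. Trp53 het bladders had the highest Mgmt, 2.68 ± 0.63, against 1.74 ± 0.57 in the Cre groups without a mutant Trp53 allele (SD, n = 3 and 4). All 3 lay above all 4, and the difference of 0.95 had a 95% interval of -0.08 to 1.97 (limma adjusted p = 0.9998). How many of all tested genes separate in this way, here or for the Krt5 driver, was not counted. The Trp53 het group also lacked the Cre and tamoxifen of the Cre groups, so allele and treatment cannot be told apart there. Between the alleles, R270H minus R172H, the difference for Mgmt was -0.08, with a 95% interval of -0.88 to 0.72 (limma adjusted p = 0.972). All R270H arrays were read on G2505C and all Upk2-Cre R172H arrays on G2600D, while Krt5-Cre R172H had arrays on both. Allele and scanner can thus not be fully told apart. Among BBN bladders Mgmt averaged 1.19 ± 0.998 on G2505C and 1.72 ± 0.89 on G2600D (SD, n = 11 and 8).

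In the mutants, the Krt5 driver gave lower values than the Upk2 driver for 3 genes at an unadjusted p under 0.05, none of them after adjustment; over all genes 922 of 17404 had such a p. Mgmt averaged 0.59 ± 0.74 in Krt5-Cre mutants and 1.51 ± 0.60 in Upk2-Cre mutants (SD, n = 7 and 5), a difference of -0.92 (limma adjusted p = 0.886). Alkbh3 averaged 1.77 ± 0.44 in Krt5-Cre mutants and 2.38 ± 0.44 in Upk2-Cre mutants, a difference of -0.62 (limma adjusted p = 0.886). Ogg1 averaged -1.05 ± 0.61 in Krt5-Cre mutants and -0.39 ± 0.39 in Upk2-Cre mutants, a difference of -0.66 that shrank to -0.02 within slide 3. For Apex1 the mutation effect was 0.29 under the Krt5 driver and -0.54 under the Upk2 driver, and the difference of these effects was 0.83, with a 95% interval of 0.01 to 1.65 (limma adjusted p = 0.998). Parp1 averaged -0.42 ± 0.40 in the mutant groups and -0.82 ± 0.31 in the other BBN groups (SD, n = 12 and 7), a difference of 0.40 (limma adjusted p = 0.644).

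Genes whose level followed a member most closely over the 19 BBN arrays are given as a description, by Pearson correlation. The points share array, slide and brightness. Hmces, a protein that shields empty sites in single-stranded DNA, stood nearest to Apex1 (0.92), followed by Sap30bp (0.87) and Kat14 (0.85). Nearest to Polb were Junb (0.88), Perp (0.87) and Blmh (0.86), and nearest to Mgmt were Sel1l3 (0.79), Slc50a1 (0.78) and Slc9a4 (0.76). Ogg1 stood nearest to Rnps1 (0.93), Mpg to Dctn2 (0.90), Xrcc1 to Polr1c (0.87), Alkbh2 to Mrps28 (0.85), Parp1 to Nop14 (0.85) and Alkbh3 to Areg (0.84).

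The other genes of these pathways were followed as 6 lists of 62 genes, of which 60 were tested, and 17 of the 60 passed the test between BBN and normal bladders, a smaller share than the 42.7% of all tested genes. In base excision gap filling and ligation 6 of 14 genes rose and none fell, where 23.7% of all tested genes were higher and 19% lower. The median difference of the list was 0.70, and that of all tested genes 0.13. These were Fen1, the flap endonuclease (2.45, limma adjusted p = 8.57e-05), Pole, the catalytic subunit of a replicative polymerase (2.86, limma adjusted p = 0.00010), Lig1, the replicative ligase (1.53, limma adjusted p = 0.00022), Hmgb1 (2.14, limma adjusted p = 0.0022), Pold1 and Apex2. For the first 4 of them, named for their small p, all 19 BBN arrays lay above all normal arrays, as they did for 13.6% of all tested genes. Polb, the polymerase of single-base gaps, fell while Pole, Pold1 and Lig1, genes shared with DNA replication, rose in the same bladders. The other 8 of the 14 genes gave no call, and 42.7% of all tested genes were called in either direction. The other glycosylases and pool-cleaning enzymes had 1 gene of 9 tested higher and none lower, Tdg (1.15, limma adjusted p = 0.0175), the glycosylase of mispaired thymine. Ung, the uracil glycosylase, gave 0.44 (limma adjusted p = 0.0768), Neil1 -0.99 (limma adjusted p = 0.116) and Mbd4 0.61 (limma adjusted p = 0.135).

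Among 10 other alkylation repair genes 1 fell, Fto (-0.63, limma adjusted p = 0.0379), an RNA demethylase of the same family as Alkbh2. Alkbh8, Alkbh5 and Alkbh1 gave -0.59, 0.61 and 0.66 without a call (limma adjusted p of 0.0736, 0.0843 and 0.115). In poly(ADP-ribose) turnover 1 of 7 tested genes fell, Parp4 (-1.10, limma adjusted p = 0.00093), and this call was lost when its probes were averaged (-0.17, limma adjusted p = 0.482). Parp2, Parg and Tnks2 gave -0.44, 0.33 and -0.06 without a call (limma adjusted p of 0.134, 0.208 and 0.784). In mismatch repair 2 of 8 genes rose, Exo1 (4.27, limma adjusted p = 1.82e-05), the resecting exonuclease, and Msh6 (0.86, limma adjusted p = 0.0194). Pms1 gave -0.45 without a call (limma adjusted p = 0.210). In nucleotide excision repair 3 of 12 genes rose and 3 fell, close to the 23.7% higher and 19% lower over all tested genes. Ercc1, a subunit of the 5′ nuclease of that pathway, rose by 1.21 (limma adjusted p = 0.0027). Ercc6, the transcription-coupled repair factor, fell by 2.25 (limma adjusted p = 0.00010) and was well above background on 9 of 19 BBN arrays. With another background correction, normexp, its difference was -0.54 without a call (limma adjusted p = 0.195). The damage sensors Xpc and Ddb2 gave -0.56 and -0.58, both lower (limma adjusted p of 0.0214 and 0.0266), and averaged over its probes Xpc gave no call. In the 8 comparisons among BBN bladders 0 of the 60 genes passed the test.

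**Figure D5:**
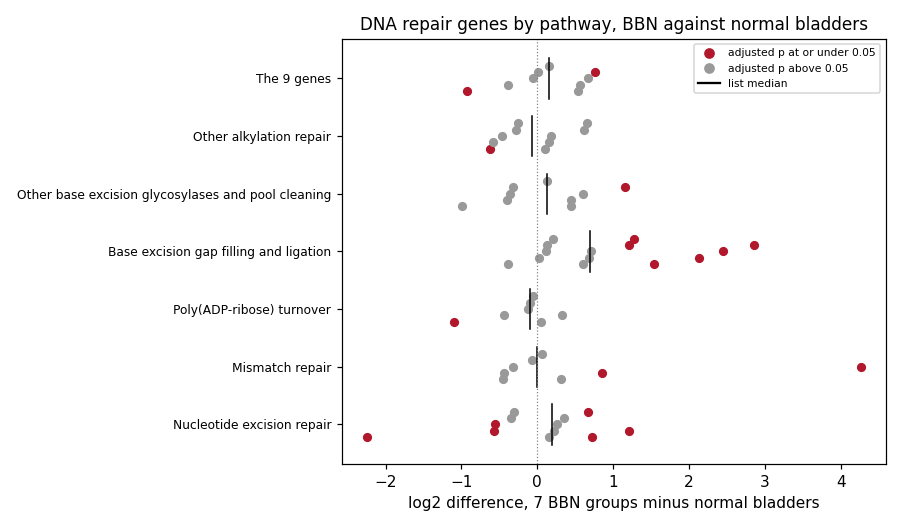
Difference between the 7 BBN groups and normal bladders (log2, x axis) for the 9 genes and for 60 tested genes of 6 neighbouring repair lists, 1 point a gene. Red points have an adjusted p at or under 0.05, and black bars are list medians. Gap filling and ligation has a median of 0.70 with 6 red points of 14, all above 0, where 42.7% of all tested genes were called. Among the 9 genes Apex1 is the red point above 0 and Polb the red point below 0.

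The tissue itself differed between the groups compared, and in RNA of mixed tissue fewer cells of a type and less RNA per cell cannot be told apart. The labels do not settle whether the normal samples were urothelium or whole bladder, so a difference in dissection cannot be told apart from these either. All 10 proliferation markers were higher in BBN bladders, with summed signals of 30.2 to 160 there and 4.41 to 6.73 in normal bladders, and all 6 smooth muscle markers were higher too (86.5 to 1021 and 45.7 to 87.1). Of 6 fibroblast markers 5 were lower (24.3 to 298 in BBN bladders and 385 to 487 in normal ones), and of 8 urothelial markers 5 were lower and 1, Krt5, higher. Among 6 general epithelial markers 2 were lower and none higher (126 to 385 and 449 to 561). Of 4 neutrophil markers 3 were higher, with Cxcr2 well above background on 0 of 3 normal arrays. Their summed signals overlapped (47.0 to 313 in BBN bladders and 37.2 to 76.9 in normal ones). Of 6 leukocyte markers 2 were higher and 3 of the 6 differences lay above 0, and the summed signals overlapped too (14.1 to 65.6 and 23.2 to 26.5). Over all tested genes 23.7% were higher and 19% lower. All 8 urothelial markers were well above background on every normal array and on every BBN array read on G2600D. Between 4 and 8 were on the BBN arrays read on G2505C, which had a smaller share of their spots well above background. The part of these shifts in the differences of Apex1, Polb and the other repair genes was not tested.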

How the data were processed

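Agilent arrays of 1 colour measured total RNA of 22 bladder samples in 8 groups. Spot intensity was made with Feature Extraction 11.0.1.1, per the file headers, which record background subtraction, while the submitters' processing notes name 9.1. The deposited table holds log2 values with the same highest value, 18.8, in every column, and served as an alternative. From the scanner files, log2 of the processed signal minus the array's 75th percentile was taken over unflagged spots, and each gene was read on its brightest probe; other probes were fitted among 25401 tested probes. Of 56605 probes 32994 had 1 symbol, 0 several and 23611 none. Genes well above background on at least 2 arrays were tested (17404), after 17 were lost to an outlier spot. limma 3.58.1 (R 4.3.3) fitted 8 group means, with Benjamini-Hochberg adjustment and a call at 0.05, and was tested on simulated data. Members and gene lists were chosen with earlier results of these data known. The text names the 9 genes, up to 4 genes of smallest p in each repair list and 3 nearest genes by correlation, Pold1, Apex2 and Krt5 being added after their values were seen; 1 gene that the rule names is not reported here. Replicate numbers were not taken to pair samples. Over 66 same-number pairs the correlation had a median of 0.03 and ran from -0.48 to 0.56. Over 144 pairs of different number the median was -0.01 and the range -0.56 to 0.51. Precision is limited by the number of arrays. Promoters and gene positions are RefSeq's on GRCm38.p6, and plots were drawn with matplotlib 3.10.9.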

Additional observations from a re-analysis of the deposited data

Results flagged for a closer look

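Mpg in the Krt5-Cre R172H bladders had 1 array apart from the other 3, at 2.24 against 1.92, 1.91 and 1.91. The gap was 0.953 of the range of the group, above Dixon's critical value for 4 samples. The 9 genes were tested in this group, and chance marks about 1 such group in 20. Mpg was called in 0 of the 9 comparisons.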

How the results depend on the processing

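The number of the 9 genes called between BBN and normal bladders (2) was 4 with the deposited table, 4 with probes well above background on all arrays and 7 with array weights, which called 13110 genes in all. Averaging arrays that share a code gave 3, although the Upk2-Cre pair averaged there read as opposite sexes. Leaving out 1 array gave between 1 and 4 calls, 1 without normal replicate 3 and 4 without any 1 of Krt5-Cre R270H replicates 1, 2 or 3, Krt5-Cre replicate 1 or Trp53 het replicate 1. With the replicate number as a block the count was 2, and in the other 8 comparisons it was 0 under every setting run, that block included. Polb kept its call in 39 of 39 settings (-1.29 to -0.77) and Apex1 in 38 (0.62 to 0.85). Mgmt was called in 2, Mpg and Parp1 in 1 each, array weights. The estimate changed sign without a call in 11 settings for Alkbh3 and 10 for Ogg1; the cause was not tested. Of the named repair genes, Fto lost its call in 15 of 39 settings, Msh6 in 8, Xpc in 7, Ddb2 in 6, Tdg in 5 and Parp4 in 1, and Ercc6 in 1 of 37, while Fen1, Pole, Lig1, Hmgb1, Exo1 and Ercc1 lost it in none. Between BBN and normal bladders 5191 genes passed in place of 7432 when slide entered as a random block, and slide could not be fitted there as a fixed block. Without 1 normal array the count was 5102, 5211 or 5059. The settings within 1 scanner or slide, without arrays against their sex label and without dim arrays were chosen after seeing the data. With 3 normal arrays on 1 slide, small differences cannot be resolved.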
